A study of Mus musculus with 16 samples.

Results

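The 10 genes described here encode the laminins, nidogens, perlecan, agrin and Sparc that endothelial cells (ECs) put into or beside their basement membrane. They are Lama4, Lama5, Lamb1, Lamb2, Lamc1, Nid1, Nid2, Hspg2, Agrn and Sparc. They were chosen by name and not by a rule on their values, though with earlier results of these data known. All 10 were found in each of the 3 tables of the series, which list 38926, 38926 and 21603 genes. RNA sequencing had been carried out on 16 libraries of sorted mouse bone ECs from the C57BL/6 background, in 3 comparisons. The first set 3 libraries of metaphyseal ECs (mpECs), the cells behind the growth plate, against 3 of ECs from the marrow cavity of the shaft (bmECs). Both were labelled wildtype and, according to the methods, were sorted at 3 weeks of age from mice in which Cdh5 drives a reporter that marks EC nuclei green. The second set 3 controls that were Yap1flx/flx, Wwtr1flx/flx and negative for Cdh5CreERT2 against 3 libraries labelled ECKO, which were positive for it, all at postnatal day 21. The third set 2 Lats2flx/flx libraries without Cdh5CreERT2 against 2 with it (Lats2 cKO), for which the labels give no age and the methods state 3 weeks. Cdh5CreERT2 is a Cre recombinase that tamoxifen activates and that the VE-cadherin promoter restricts to ECs. The methods state that pups received tamoxifen either in the first days after birth or about a week after birth. For Yap1/Taz mutants analysed at postnatal day 21, the study describes the later schedule. Controls of both mutants were littermates that carried the floxed alleles.

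Laminins are cross-shaped trimers of an α, a β and a γ chain that assemble into a sheet on the cell surface. Nidogens and perlecan join this sheet to a network of type IV collagen, and agrin binds laminin to receptors of the cell. In vessels the α chain is mainly α4 or α5. Laminin with the α4 chain is found along all endothelium, while laminin with the α5 chain is known for its patchy deposition and for limiting the passage of leukocytes. Bone contains columnar capillaries in the metaphysis and sinusoids in the marrow, and sinusoids are known for a thin and broken basement membrane.

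All positions are on GRCm38 with gene limits from GENCODE M21. Lama4, the α4 chain, lies on chromosome 10 from 38965515 to 39110188. Lama5, the α5 chain, lies on chromosome 2 from 180176373 to 180225859. The β1 chain gene Lamb1 occupies chromosome 12 from 31265234 to 31329644, and the β2 chain gene Lamb2 chromosome 9 from 108479736 to 108490530. Lamc1, the γ1 chain common to both laminins, lies on chromosome 1 from 153218922 to 153332786. Nid1 (nidogen 1) was annotated on chromosome 13 from 13437551 to 13512269 and Nid2 (nidogen 2) on chromosome 14 from 19751265 to 19811787. Hspg2, the perlecan gene, and Agrn, the agrin gene, are both on chromosome 4, from 137468769 to 137570630 and from 156165290 to 156197488. Sparc, which encodes a small matricellular protein that binds collagen, lies on chromosome 11 from 55394500 to 55423183. Exons of 8 members overlap no other gene. Of the exon bases of Nid1, 2.06% lie over Gm48682 on the other strand, and of those of Nid2, 8.45% lie over Rtraf on the other strand. The kit kept strand but whether the counting used strand is not given in the sources used here, so a small share of the Nid1 and Nid2 values is uncertain.

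Promoter windows of 300 bases, from 250 before to 50 after the start that RefSeq gives on GRCm38.p6, were found for 7 members. Lama4, Lamc1 and Nid2 had no entry. The windows below belong to the β chain pair and the proteoglycan pair, whose partners are compared throughout, and to Nid1, the member that was higher in bmECs. They are Lamb1 at chr12:31265043-31265342 (plus strand), Lamb2 at chr9:108479612-108479911 (plus), Hspg2 at chr4:137468553-137468852 (plus), Agrn at chr4:156197439-156197738 (minus, the upstream one of 2 starts) and Nid1 at chr13:13437352-13437651 (plus). Each is printed from 5′ to 3′ on the strand of the gene. Capitals mark the GC box letters GGGCGG, which Sp1 binds, and the core GGAATG of the sites of TEAD proteins, the DNA-binding partners of Yap1 and Taz, on either strand. The GGGCGG and GGAATG matches share no base.
Lamb1: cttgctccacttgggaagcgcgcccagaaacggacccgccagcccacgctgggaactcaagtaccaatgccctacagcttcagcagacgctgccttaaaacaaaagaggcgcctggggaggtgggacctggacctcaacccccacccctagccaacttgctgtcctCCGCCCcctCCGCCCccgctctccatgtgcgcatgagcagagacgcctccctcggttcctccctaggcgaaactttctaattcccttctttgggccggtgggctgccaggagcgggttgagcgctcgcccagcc
Lamb2: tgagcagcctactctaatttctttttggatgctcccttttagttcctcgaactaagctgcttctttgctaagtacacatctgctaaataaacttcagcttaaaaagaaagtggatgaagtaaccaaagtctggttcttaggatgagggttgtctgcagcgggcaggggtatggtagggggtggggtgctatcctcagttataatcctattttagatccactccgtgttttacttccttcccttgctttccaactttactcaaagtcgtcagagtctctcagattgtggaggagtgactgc
Hspg2: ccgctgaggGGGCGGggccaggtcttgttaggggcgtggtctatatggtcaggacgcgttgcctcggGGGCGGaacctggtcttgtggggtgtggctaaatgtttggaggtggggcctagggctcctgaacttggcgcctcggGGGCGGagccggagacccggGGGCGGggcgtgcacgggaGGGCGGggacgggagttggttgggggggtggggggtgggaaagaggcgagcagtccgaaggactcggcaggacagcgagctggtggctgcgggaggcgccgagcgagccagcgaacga
Agrn: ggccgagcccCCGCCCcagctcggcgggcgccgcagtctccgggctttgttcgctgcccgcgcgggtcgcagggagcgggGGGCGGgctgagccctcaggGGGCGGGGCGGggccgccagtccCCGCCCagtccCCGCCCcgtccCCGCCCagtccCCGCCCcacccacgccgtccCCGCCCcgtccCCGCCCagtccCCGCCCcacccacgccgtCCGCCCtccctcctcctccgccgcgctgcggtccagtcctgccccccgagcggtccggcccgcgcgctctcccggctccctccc
Nid1: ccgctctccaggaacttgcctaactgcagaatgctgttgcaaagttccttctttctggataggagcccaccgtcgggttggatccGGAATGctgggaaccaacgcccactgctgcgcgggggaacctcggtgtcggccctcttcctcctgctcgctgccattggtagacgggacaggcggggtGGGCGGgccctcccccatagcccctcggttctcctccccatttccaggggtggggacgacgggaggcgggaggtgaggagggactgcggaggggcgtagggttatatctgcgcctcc
GGGCGG occurred 2 times in the Lamb1 window and 0 times in that of Lamb2. It occurred 5 times in the Hspg2 window and 12 times in the upstream Agrn window, with matches there that share bases, and 1 time in that of Nid1. The windows not shown held 4 matches for Lama5, 2 for the downstream start of Agrn and 0 for Sparc. Of all 32851 windows of this length, 35.7% held the letters. GGAATG was found in the Nid1 window alone among the 8 windows of the 7 members, against 14.7% of all windows. The AP-1 letters TGANTCA, which 7.81% of all windows held, and TATAAA, which 13.6% held, were in none of the 8. The Lamb2 window had 44.0% G and C and that of Lamb1 63.7%, while the median of all windows was 52.7%.

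The values are FPKM, the fragments per kilobase of gene scaled to the size of the library, so levels of different genes can be compared within a table. The 3 tables were normalized separately. Reads recovered from the steps of the values came to 11122416 to 14756141 on genes in the mpEC and bmEC libraries, 4889945 to 7162965 in the Yap1/Taz libraries and 4732684 to 7074015 in the Lats2 libraries. The fewest reads on a member in any library were 46, for Nid2 in a bmEC library, so no member was near the detection floor. Cdh5 was at 101 FPKM or more and Pecam1 at 57.1 FPKM or more in all 16 libraries. Markers of blood cells were abundant too, with summed values of 8 erythroid genes from 276 FPKM in a Lats2 cKO library to 60489 FPKM in a bmEC library, although all libraries came from sorted ECs. In bulk RNA of this kind, fewer cells of a type and less RNA per cell cannot be told apart.

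The first comparison asks how ECs of the metaphysis and of the marrow cavity differ. Most of the basement membrane genes were lower in bmECs. Differences are given as bmEC minus mpEC on the scale of log2(FPKM + 1), which understates the change of low genes, with limma's standard error and its Benjamini-Hochberg adjusted p over the 11422 genes that averaged 1 FPKM or more. A gene was called at an adjusted p under 0.05. Of the 10 members, 7 were lower and 1 was higher, where 10.5% of all genes tested were called lower and 13.0% higher. The value of every bmEC library lay outside the range of the mpEC libraries for all 10 members, 9 of them below and 1 above, against 19.2% of all genes that lay wholly below and 22.1% wholly above. The median difference of the members was -0.84, and that of all genes -0.00068. The largest differences were those of Nid2, Lamb1 and Lama4, in that order, and Nid1 was the member that rose.

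**Figure D1:**
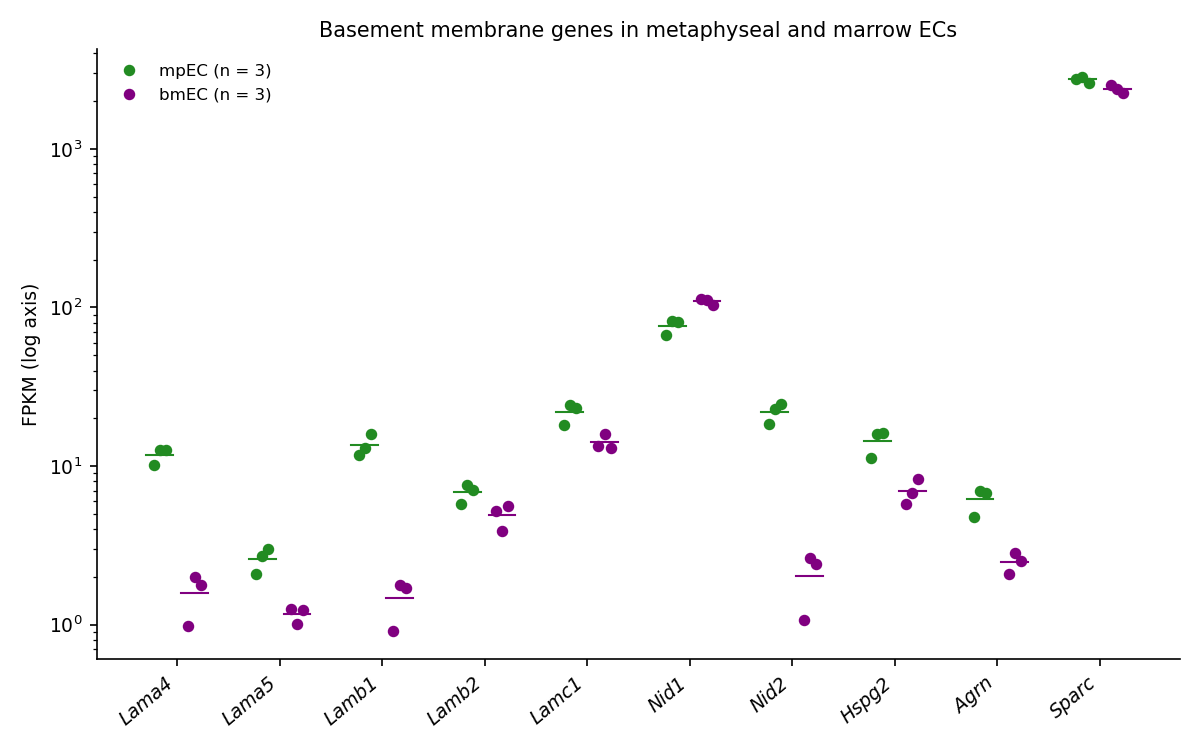
FPKM of each of the 10 basement membrane genes (log axis) in 3 mpEC (green) and 3 bmEC (purple) libraries, with 1 point per library and a bar at the group mean. The points of Lama4, Lamb1 and Nid2 lie far apart between the groups, those of Sparc lie close together near the top, and only Nid1 has all bmEC points above the mpEC points.

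Lama4 was at 10.2, 12.6 and 12.7 FPKM in the mpEC libraries and at 0.977, 2.00 and 1.77 FPKM in the bmEC libraries. All bmEC values were far below all mpEC values, a 7.47-fold difference between the means. On the log2 scale Lama4 fell by 2.33 (SE 0.18, adjusted p = 9.97e-05). The other vascular α chain, Lama5, was low in both, at 2.09, 2.73 and 3.01 FPKM in mpECs and 1.26, 1.00 and 1.24 FPKM in bmECs. The groups of Lama5 were apart but by less, and the difference was -0.73 (SE 0.14, adjusted p = 0.00886).

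The β chains parted in the same way. Lamb1 was at 11.8, 13.0 and 15.9 FPKM in mpECs and at 0.907, 1.79 and 1.70 FPKM in bmECs, a difference of -2.57 (SE 0.18, adjusted p = 7.57e-05). The lowest mpEC value of Lamb1 was thus several times the highest bmEC value, and the means differed 9.24-fold. The mpEC libraries held Lamb2 at 5.77 to 7.59 FPKM and the bmEC libraries at 3.89 to 5.60 FPKM. These ranges came close without overlapping, and the difference of -0.41 (SE 0.15, adjusted p = 0.0847) did not pass the threshold. Of these chains, Lamb1 is the one with GC boxes in its promoter window and Lamb2 the one without. Among the other members the matches were 4 for Lama5, 5 for Hspg2, 12 in the upstream window of Agrn, 1 for Nid1 and 0 for Sparc. Whether these letters bear on the differences was not tested.

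Lamc1, whose γ1 chain pairs with either α and either β chain, was at 18.2, 24.2 and 23.2 FPKM in mpECs and 13.4, 15.9 and 12.9 FPKM in bmECs. It was lower in each bmEC library than in any mpEC library (-0.59, SE 0.13, adjusted p = 0.0141). That call was lost without bmEC replicate 1 (adjusted p = 0.0508) or mpEC replicate 3 (adjusted p = 0.0561).

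The 2 nidogens moved in opposite directions. Nid2 was at 18.4, 22.7 and 24.6 FPKM in mpECs and at 1.07, 2.62 and 2.42 FPKM in bmECs, the largest difference of any member (-2.95, SE 0.22, adjusted p = 9.29e-05). Nid1 was at 67.0, 82.4 and 80.8 FPKM in mpECs and at 113, 111 and 104 FPKM in bmECs (0.51, SE 0.10, adjusted p = 0.00778). Nidogen 1 transcripts were thus the more abundant in both cell populations, and Nid2 made up 22.2% ± 1.03 (SD, n = 3) of the summed nidogen FPKM in mpECs and 1.84% ± 0.779 in bmECs.

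Both heparan sulfate proteoglycans were lower in bmECs. Perlecan, encoded by Hspg2, was at 11.2, 15.8 and 16.2 FPKM in mpECs and 5.77, 6.76 and 8.30 FPKM in bmECs (-0.95, SE 0.17, adjusted p = 0.00536). Agrn was at 4.80, 6.98 and 6.81 FPKM and at 2.09, 2.84 and 2.53 FPKM, respectively (-1.04, SE 0.16, adjusted p = 0.00263). Neither gene overlapped between the groups, and the means differed 2.08-fold for Hspg2 and 2.49-fold for Agrn.

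Sparc stood far above the other members in level. It was at 2769, 2835 and 2611 FPKM in mpECs, where it ranked 15th of 20296 genes above 0, and at 2506, 2397 and 2249 FPKM in bmECs, where it ranked 19th of 19638. Each bmEC value was below each mpEC value, but the difference of -0.20 (SE 0.10, adjusted p = 0.185) was small and did not pass the threshold. It passed after quantile normalization (-0.31, adjusted p = 0.0323).

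In mpECs the order of mean levels after Sparc was Nid1, Nid2, Lamc1, Hspg2, Lamb1, Lama4, Lamb2, Agrn and Lama5. Ranges of neighbouring members overlapped for Nid2 and Lamc1, for Hspg2 and Lamb1, for Lamb1 and Lama4 and for Lamb2 and Agrn. In bmECs it was Nid1, Lamc1, Hspg2, Lamb2, Agrn, Nid2, Lama4, Lamb1 and Lama5, and the ranges of neighbours overlapped from Agrn down to Lama5. Nid2 therefore went from the third to the seventh place of the 10.

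The choice of chain was compared as the difference of log2(FPKM + 1) between partners in each library. Over these 3 against 3 libraries a two-sided exact permutation test cannot go below p = 0.1. Lama5 relative to Lama4 was -1.86, -1.86 and -1.77 in mpECs and 0.19, -0.58 and -0.31 in bmECs, a shift of 1.60 (exact p = 0.1, adjusted over 4 ratios 0.133). Lamb2 relative to Lamb1 shifted by 2.16 and changed sign, from a mean of -0.89 in mpECs to 1.27 in bmECs (exact p = 0.1, adjusted 0.133). Lamb1 was the more abundant β chain in every mpEC library and Lamb2 in every bmEC library. As a share of summed FPKM, Lama4 made up 82.0% ± 1.08 of the α chain pair in mpECs and 56.4% ± 11.7 in bmECs, and Lamb1 66.5% ± 3.04 and 23.2% ± 8.32 of the β chain pair. Nid2 relative to Nid1 shifted by -3.46 (exact p = 0.1, adjusted 0.133). Agrn relative to Hspg2 differed by -0.08 with overlapping groups (exact permutation p = 0.8), so on this scale the proteoglycan pair showed no shift beyond the spread between libraries. As a share of summed FPKM, Hspg2 made up 70.0% ± 0.515 of this pair in mpECs and 73.5% ± 3.08 in bmECs. The ranges of that share, 69.4% to 70.4% and 70.5% to 76.6%, came close without overlapping.

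**Figure D2:**
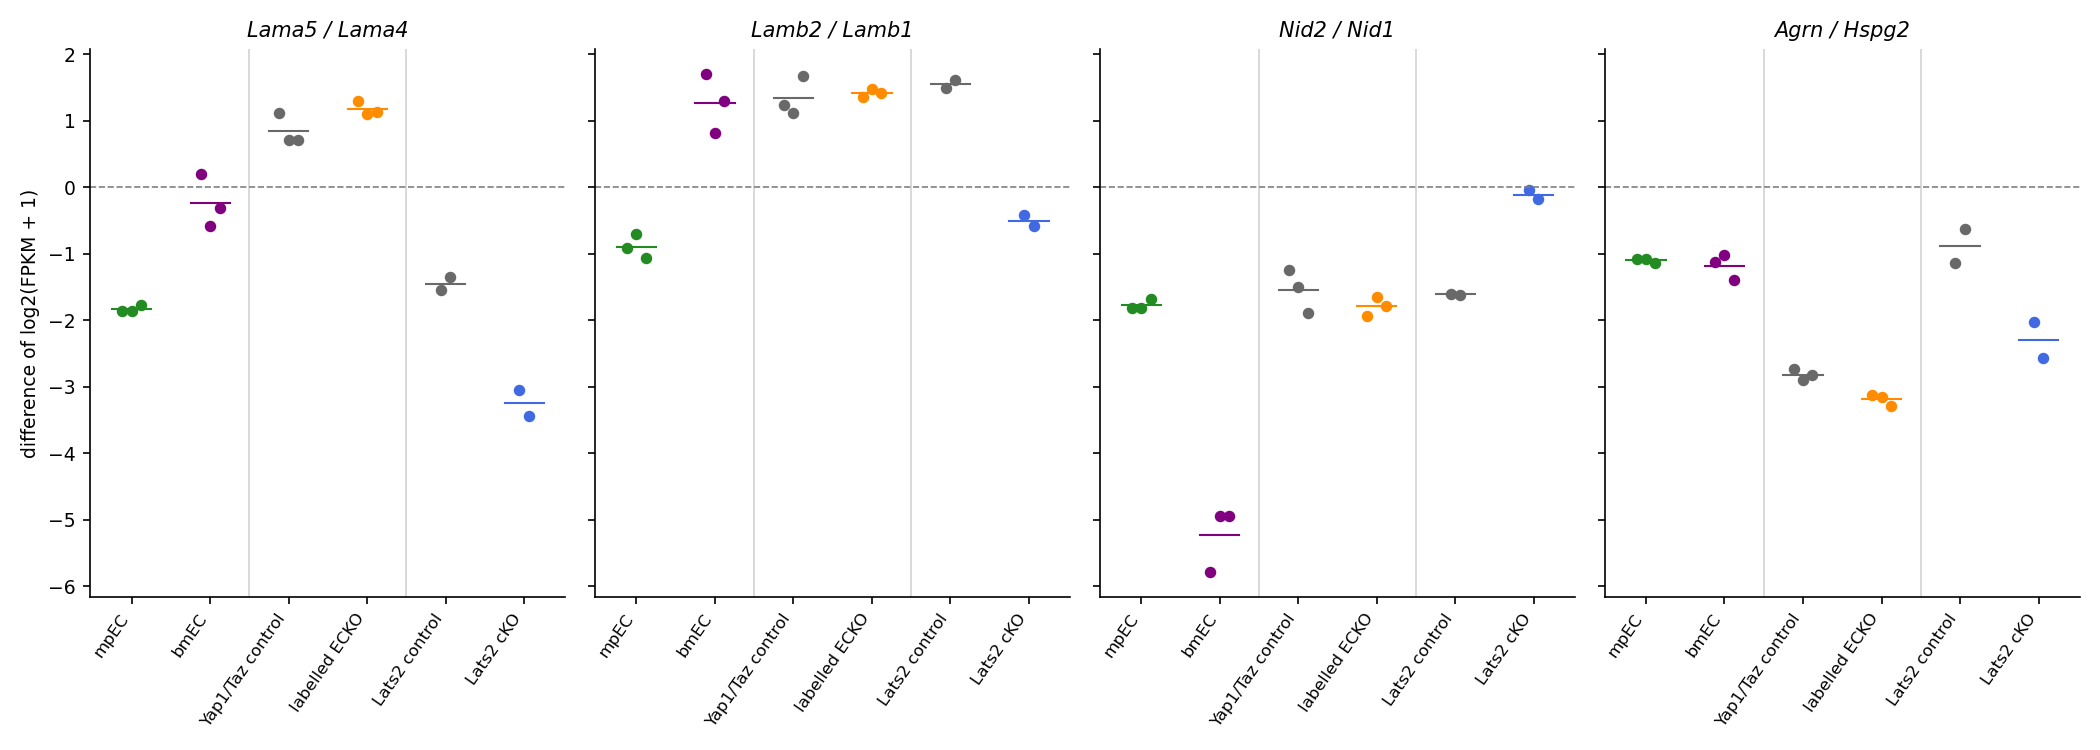
Difference of log2(FPKM + 1) between the partners of 4 pairs (Lama5 and Lama4, Lamb2 and Lamb1, Nid2 and Nid1, Agrn and Hspg2), with 1 point for each of the 16 libraries, a bar at each group mean and grey lines between the 3 separately normalized tables. From mpEC to bmEC the first 2 ratios go up and the nidogen ratio goes down, and from Lats2 control to Lats2 cKO each of these 3 goes the other way.

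The other genes of the basement membrane were taken from lists of known members. Of 8 collagen genes of basement membranes, 4 were expressed highly enough to be tested, and all 4 (Col4a1, Col4a2, Col15a1 and Col18a1) were lower in bmECs, with a median difference of -1.98. Col18a1, from which endostatin is cut, averaged 14.5 ± 2.51 FPKM in the mpEC and 0.812 ± 0.229 FPKM in the bmEC libraries (SD, n = 3; -3.10, SE 0.15, adjusted p = 2.18e-05). Col4a1, a chain of the main type IV collagen of vessels, differed by -2.06 (SE 0.17) and Col15a1 by -1.89 (SE 0.16). Of 16 other basement membrane genes 6 were tested, of which 4 were lower and 1 was higher. The largest falls were those of Vwa1 (-2.46, SE 0.28), Sparcl1, a relative of Sparc (-1.81, SE 0.41), and Fbln2 (-1.57, SE 0.17), and Tinagl1 rose (0.78, SE 0.11). Npnt was called lower as well (-1.03, SE 0.18).

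Of 16 receptor genes for laminin, perlecan, agrin and Sparc, 13 were tested, of which 5 were lower in bmECs and 2 were higher (median -0.33). Those with the largest falls were Lrp4, an agrin receptor subunit (-1.85), the integrin subunit Itga2 (-0.94) and the syndecan Sdc2 (-0.79). Itga1, a collagen and laminin integrin subunit, rose from 19.99 ± 2.39 to 47.2 ± 4.34 FPKM (1.20, SE 0.11, adjusted p = 0.00025), and Sdc4 rose by 0.83. Fewer receptor calls remained in some reduced fits, with 1 receptor called higher without bmEC replicate 2 or 3 or mpEC replicate 3 and 3 called lower without bmEC replicate 1 or mpEC replicate 2. Of 20 genes of heparan sulfate synthesis, which makes the sugar chains of perlecan and agrin, 18 were tested, and 2 were higher, 1 was lower and 15 were not called. Hs3st3b1, a sulfotransferase, rose by 2.21 and the epimerase Glce by 0.75, and Ext1, a chain polymerase, fell (-0.61). The Ext1 call was lost without bmEC replicate 3, mpEC replicate 2 or mpEC replicate 3.

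Markers of other cells moved with this comparison. All 6 chondrocyte markers tested were lower in bmECs, and the summed level of the 10 markers was 39.0 to 45.6 FPKM in mpECs and 0.106 to 0.212 FPKM in bmECs, where Col2a1, Matn1 and Col9a1 were at 0 in each library. The 10 osteoblast markers summed to 762, 400 and 152 FPKM in mpEC replicates 1 to 3 and to 43.0 to 55.2 FPKM in bmECs, and 5 of 7 tested were lower. Replicate 1, with the highest osteoblast sum, had the lowest mpEC value of Lama4, Lama5, Lamb1, Lamb2, Lamc1, Nid1, Nid2, Hspg2 and Agrn. It also had the lowest sum of the 12 endothelial markers, at 1685 FPKM against 2109 and 1996 FPKM in mpEC replicates 2 and 3. Its neutrophil (27761 FPKM) and erythroid (52917 FPKM) sums were the highest of the 3 mpEC libraries. In bmECs the endothelial sums were 2278 to 2370 FPKM, and 5 of the 12 markers were called higher and 3 lower. Pericyte and stromal markers summed to 110 to 145 FPKM in mpECs and 57.7 to 122 FPKM in bmECs, with 2 of 8 tested higher and 2 lower in bmECs. Macrophage and osteoclast markers summed to 170 to 219 FPKM in mpECs and 360 to 431 FPKM in bmECs. Most of that rise was Mrc1, whose mean went from 98.8 ± 14.6 to 331 ± 27.2 FPKM (1.74). Of the 8 tested, Mrc1 was the only 1 called higher, and Acp5 (-0.78) and Ctsk (-2.63), both osteoclast enzymes, were lower. The other 5, from Csf1r (-0.46) to C1qb (0.38), were not called. Genes of the stress of sorting summed to 637 to 1022 FPKM in mpECs and 794 to 2586 FPKM in bmECs, with 2 of 9 tested called higher, Jun (1.31) and Junb (1.11). Of the blood lists, 1 of 8 erythroid markers was higher, 1 of 8 B cell markers was lower, and 0 of 8 neutrophil and 0 of 6 megakaryocyte markers tested were called by limma. The part of these cells in the members' values was not tested.

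The Lats2 comparison asks what the loss of Lats2, a kinase that restrains Yap1 and Taz, does to bone ECs. Lats2 itself was at 23.4 and 24.0 FPKM in the controls and 19.2 and 19.2 FPKM in the Lats2 cKO libraries. Each Lats2 cKO value was below each control, but the difference of -0.29 (SE 0.11, adjusted p = 0.125) did not pass the threshold. Which exons are removed is not given in the sources used here, and reads on exons that remain can persist. The study also measured Lats2 transcripts in isolated mutant ECs, which was not analysed here. Of 5 genes known to respond to Yap1 and Taz, all tested, 3 were called higher and 1 lower in the Lats2 cKO libraries. Their summed level was 139 to 143 FPKM in the controls and 618 to 1047 FPKM in the Lats2 cKO libraries. Wwtr1 rose from 56.3 ± 3.60 to 87.9 ± 6.49 FPKM (0.63, SE 0.12, adjusted p = 0.0257), and Yap1 did not pass (-0.05, adjusted p = 0.876).

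Of the laminin chains, α4, β1 and γ1 rose, together with nidogen 2 and perlecan. Differences are Lats2 cKO minus control over 12453 genes tested. Of the 10 members, 5 were higher and 0 lower, where 11.8% of all genes were called higher and 9.98% lower. The 5 were Lamb1, Lama4, Hspg2, Nid2 and Lamc1. At an unadjusted p under 0.05, 6 members differed. Groups did not overlap for 6 members on the higher side and 1 on the lower, which with 2 against 2 libraries held for 34.0% and 34.2% of all genes. The median difference of the members was 0.89, and that of all genes -0.0033. Every call in this comparison rests on both controls, since without either of them no gene at all was called, with adjusted p-values of 0.110 to 0.129 for Lama4.

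**Figure D3:**
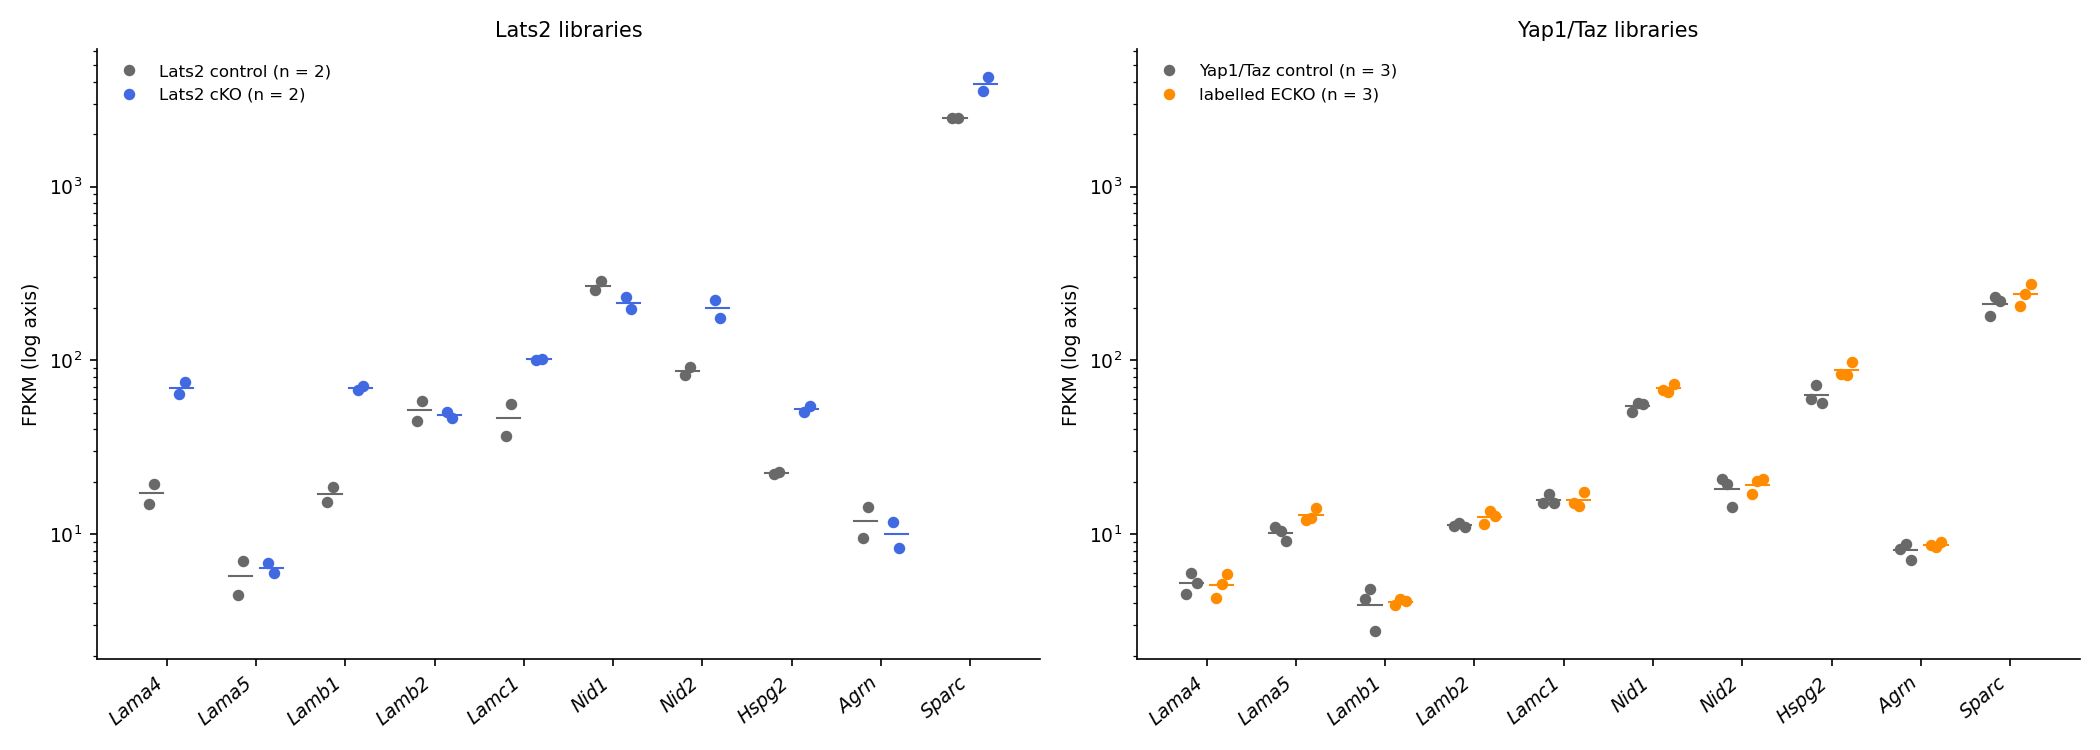
FPKM of the 10 genes (log axis) in the Lats2 libraries (left, 2 controls in grey and 2 Lats2 cKO in blue) and in the Yap1/Taz libraries (right, 3 controls in grey and 3 libraries labelled ECKO in orange), with 1 point per library and a bar at the group mean. Lama4 and Lamb1 rise from under 20 to over 60 FPKM on the left, and on the right the groups of most genes overlap.

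Lama4 was at 15.0 and 19.5 FPKM in the controls and 64.0 and 74.8 FPKM in the Lats2 cKO libraries (1.96, SE 0.17, adjusted p = 0.00769), a 4.03-fold rise of the mean. Lama5 was at 4.45 and 7.03 FPKM and at 6.82 and 5.96 FPKM. The Lama5 values overlapped, and the difference was 0.16 with a 95% interval from -0.41 to 0.73 (adjusted p = 0.644).

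Of the β chains, Lamb1 was at 15.3 and 18.6 FPKM in the controls and 67.3 and 70.8 FPKM in the Lats2 cKO libraries (1.97, SE 0.14, adjusted p = 0.00678). Its mean rose 4.07-fold, close to that of Lama4. Lamb2 was at 44.8 and 58.6 FPKM and at 50.3 and 46.7 FPKM, so both Lats2 cKO values lay between the controls (-0.08, 95% interval -0.49 to 0.33, adjusted p = 0.744).

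Lamc1 was at 36.9 and 55.8 FPKM in the controls and 99.9 and 102 FPKM in the Lats2 cKO libraries (1.14, SE 0.21, adjusted p = 0.0229). The Lats2 cKO values were alike and both far above the controls, which differed from each other. The Lamc1 call was lost when any 1 of the 4 libraries was left out (adjusted p = 0.0771 to 0.143) and with no filter on low genes (0.0538).

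The nidogens again parted. Nid2 rose from 82.5 and 92.1 FPKM to 223 and 175 FPKM (1.17, SE 0.16, adjusted p = 0.0132). Nid1 was at 253 and 285 FPKM in the controls and 230 and 199 FPKM in the Lats2 cKO libraries, both below the controls, and the difference of -0.33 (SE 0.14, adjusted p = 0.157) did not pass. Nid2 made up 24.5% ± 0.0863 (SD, n = 2) of the summed nidogen FPKM in the controls and 48.0% ± 1.73 in the Lats2 cKO libraries.

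Among the proteoglycans, Hspg2 was at 22.2 and 22.9 FPKM in the controls and 50.7 and 54.4 FPKM in the Lats2 cKO libraries (1.19, SE 0.11, adjusted p = 0.0089). Perlecan transcripts thus rose 2.33-fold with little spread in either group. Agrn was at 9.55 and 14.4 FPKM and at 11.7 and 8.35 FPKM, with overlapping groups (-0.22, 95% interval -0.85 to 0.40, adjusted p = 0.546).

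Sparc was at 2471 and 2487 FPKM in the controls and 3540 and 4272 FPKM in the Lats2 cKO libraries, where it ranked seventh of 18201 genes above 0. Both Lats2 cKO values were above both controls, but the difference of 0.65 (SE 0.19, adjusted p = 0.0633) did not pass. It was 0.65 and passed with limma-voom on the recovered reads (adjusted p = 0.016), it passed in limma without Lats2 cKO replicate 1 (0.78, adjusted p = 0.0362), and it was -0.06 after quantile normalization, which gives genes of the same rank the same value in every library.

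The laminin and nidogen pairs moved against the direction seen from mpECs to bmECs. Agrn relative to Hspg2, whose groups had overlapped there on the log2 scale, was lower in both Lats2 cKO libraries. With 2 against 2 libraries an exact permutation test cannot go below p = 0.333, which was its value for all 4 pairs. Lama5 relative to Lama4 went from -1.55 and -1.35 in the controls to -3.05 and -3.45, a shift of -1.80. Lamb2 relative to Lamb1 went from 1.49 and 1.61 to -0.41 and -0.59, a shift of -2.05. Lamb2 was thus the more abundant β chain in both controls and Lamb1 in both Lats2 cKO libraries. The shift was 1.50 for Nid2 relative to Nid1, and -1.41 for Agrn relative to Hspg2.

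All 4 basement membrane collagens tested rose, with a median difference of 1.69. They were Col15a1 from 12.7 ± 4.04 to 64.6 ± 4.03 FPKM (2.29, SE 0.22), Col18a1 (1.83, SE 0.17), Col4a1 (1.56, SE 0.24) and Col4a2. Of the other basement membrane genes 8 were tested, and 5 were higher and 2 were lower. Ntn4, a laminin-related netrin, rose by 2.46 (SE 0.30), Vwa1 by 2.21 (SE 0.21) and Sparcl1 by 1.98. Fbln2 (1.48) and Tinagl1 (0.73) were called higher as well. Npnt, a ligand of integrin α8, fell from 173 ± 5.95 to 38.5 ± 20.8 FPKM (-2.24, SE 0.36), and Papln fell too (-0.85). Npnt and Tinagl1 thus moved in the same direction as from mpECs to bmECs, while Vwa1, Sparcl1 and Fbln2 moved in the opposite one. Of the receptor genes 14 were tested, and 3 were higher and 1 was lower. Itga3, a subunit of a laminin integrin, rose by 1.62 (SE 0.26), Bcam, a receptor of laminin α5, by 1.27 (SE 0.29) and Itgb1 by 0.61 (SE 0.13), while Stab1, an endocytic receptor for Sparc, fell (-1.04, SE 0.24). Of 18 heparan sulfate genes tested, Sulf1 (0.95, SE 0.20) and Ext1 (0.87, SE 0.16) were higher and Hs3st3b1 was lower (-1.08). No call on these receptor and heparan sulfate genes remained without Lats2 cKO replicate 2, when 2 of the collagens and 3 of the other basement membrane genes were still called higher and 1 lower.

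Neutrophil, B cell and erythroid markers fell and some mural markers rose in the same libraries. Neutrophil markers summed to 2884 and 1932 FPKM in the controls and 848 and 705 FPKM in the Lats2 cKO libraries, with 6 of 8 lower, and B cell markers to 106 and 93.7 FPKM against 34.5 and 27.6 FPKM, with 6 of 7 tested lower. Erythroid markers summed to 3770 and 2526 FPKM against 1428 and 276 FPKM, and 2 of 8 were lower. Megakaryocyte markers summed to 31.9 and 121 FPKM in the controls and 29.0 and 33.8 FPKM in the Lats2 cKO libraries. Of 6 tested, 1 was higher and 1 was lower. Macrophage and osteoclast markers summed to 175 and 154 FPKM against 74.0 and 35.2 FPKM, with Mrc1 lower (-2.95) and Ctsk higher (1.31) of 7 tested. The median difference of these 7 was 0.35, so most of them did not share the fall of the sum. The 12 pericyte and stromal markers summed to 57.8 and 68.6 FPKM in the controls and 114 and 111 FPKM in the Lats2 cKO libraries, and 4 of 8 tested were higher and 0 lower. The 12 endothelial markers summed to 3272 and 3577 FPKM and to 3199 and 2989 FPKM, with 1 of 12 called higher and 3 lower. Pecam1 was higher (0.85), and Flt4 (-1.81), Tek (-1.35) and Kdr (-0.95) were lower. Each of these genes had been called in the opposite direction in bmECs. Control replicate 1 had 78.1 FPKM of summed osteoblast and 13.3 FPKM of chondrocyte markers, where the other 3 libraries had 10.3 to 17.7 and 0.132 to 1.15 FPKM. The part of these cells in the rise of the members was not tested.

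The Yap1/Taz comparison asks what the loss of Yap1 and Taz does to bone ECs. In the libraries labelled ECKO, Wwtr1, which encodes Taz, was at 15.3, 19.6 and 19.5 FPKM, against 10.01, 9.88 and 10.3 FPKM in the controls. The deleted gene was thus higher in each library labelled ECKO (0.78, SE 0.12, adjusted p = 0.0272), and Yap1, at 0.989 to 1.43 FPKM against 0.995 to 1.62 FPKM, showed no fall beyond its spread (-0.04, SE 0.18, adjusted p = 0.934). The direction goes against the label, and the removed exons are not given in the sources used here, so directions below hold for the libraries as labelled. The study also checked the deletion by qPCR and by staining for Yap1, which were not analysed here. Of the 5 genes known to respond to Yap1 and Taz, 4 were tested and 0 were called by limma. The 5 summed to 124 to 159 FPKM in the controls and 128 to 139 FPKM in the libraries labelled ECKO. Most of each sum was Axl, which averaged 105 FPKM in the controls and 99.9 FPKM in the libraries labelled ECKO (-0.07). Below it, Ccn2 differed by -0.83 (SE 0.37), Ccn1 by 0.46 (SE 0.18) and Amotl2 by 0.02, and Ankrd1 was at 0 throughout.

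None of the 10 members passed the threshold here. Limma called 0 members higher and 0 lower, where 0.883% of the 11320 genes tested were called higher and 0.424% lower. At an unadjusted p under 0.05 it gave 3, and limma-voom on recovered reads called 1. Of the members, 3 had every library labelled ECKO above every control and 0 the reverse, where 12.3% and 11.3% of all genes did. The median difference was 0.12 for the members and -0.0047 for all genes.

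Those 3 were Hspg2, Nid1 and Lama5. Perlecan (Hspg2) was at 59.8, 72.5 and 56.8 FPKM in the controls and 83.2, 82.8 and 97.2 FPKM in the libraries labelled ECKO. Its difference of 0.47 (SE 0.12, adjusted p = 0.0775) passed only with limma-voom (0.48, adjusted p = 0.0335). Nid1 was at 50.5, 56.6 and 56.0 FPKM and at 67.6, 65.7 and 73.2 FPKM (0.34, SE 0.09, adjusted p = 0.107), and Lama5 at 10.95, 10.4 and 9.14 FPKM and at 12.0, 12.3 and 14.1 FPKM (0.31, SE 0.11, adjusted p = 0.191).

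Lama4, Lamb1 and Nid2, the members with the largest differences between mpECs and bmECs, stayed within the spread of these libraries. Lama4 was at 4.54, 5.96 and 5.21 FPKM in the controls and 4.31, 5.19 and 5.88 FPKM in the libraries labelled ECKO (-0.03, 95% interval -0.34 to 0.29). Lamb1 was at 4.21, 4.80 and 2.75 FPKM and at 3.91, 4.24 and 4.12 FPKM (0.07, 95% interval -0.30 to 0.45). Nid2 was at 20.8, 19.3 and 14.4 FPKM and at 17.0, 20.2 and 20.6 FPKM (0.09, 95% interval -0.23 to 0.41). For each of these 3 the groups overlapped, and no interval reached beyond 0.45 in either direction. Lamb2, Lamc1, Agrn and Sparc overlapped as well, with differences of 0.14, -0.01, 0.10 and 0.20. Of the 4 pairs, Agrn relative to Hspg2 was lower in every library labelled ECKO (-0.37, exact permutation p = 0.1, adjusted 0.4), and the exact p was 0.2 to 0.8 for the other pairs.

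None of the 4 basement membrane collagens tested and none of the 18 heparan sulfate genes tested was called by limma. Pxdn, a peroxidase that cross-links type IV collagen, was higher at 24.9 ± 1.19 against 16.8 ± 1.09 FPKM (0.54, SE 0.10, adjusted p = 0.0387), the 1 call among 10 other basement membrane genes tested. Stab1 was the 1 receptor called of 12 tested, at 104 ± 3.68 against 67.5 ± 7.53 FPKM (0.62, SE 0.10, adjusted p = 0.0347). The Pxdn call was lost without any 1 of the 3 controls or without replicate 2 or 3 of the libraries labelled ECKO, and that of Stab1 without control replicate 2 or 3 or the same ECKO-labelled replicates. The 12 endothelial markers summed to 687 to 731 FPKM in the controls and 880 to 1042 FPKM in the libraries labelled ECKO, with 2 of 12 called higher, and the 10 osteoblast markers to 38.0 to 52.2 and 10.8 to 24.5 FPKM, with 3 of 6 tested lower. The part of these shifts in the values of Hspg2, Nid1 and Lama5 was not tested.

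**Figure D4:**
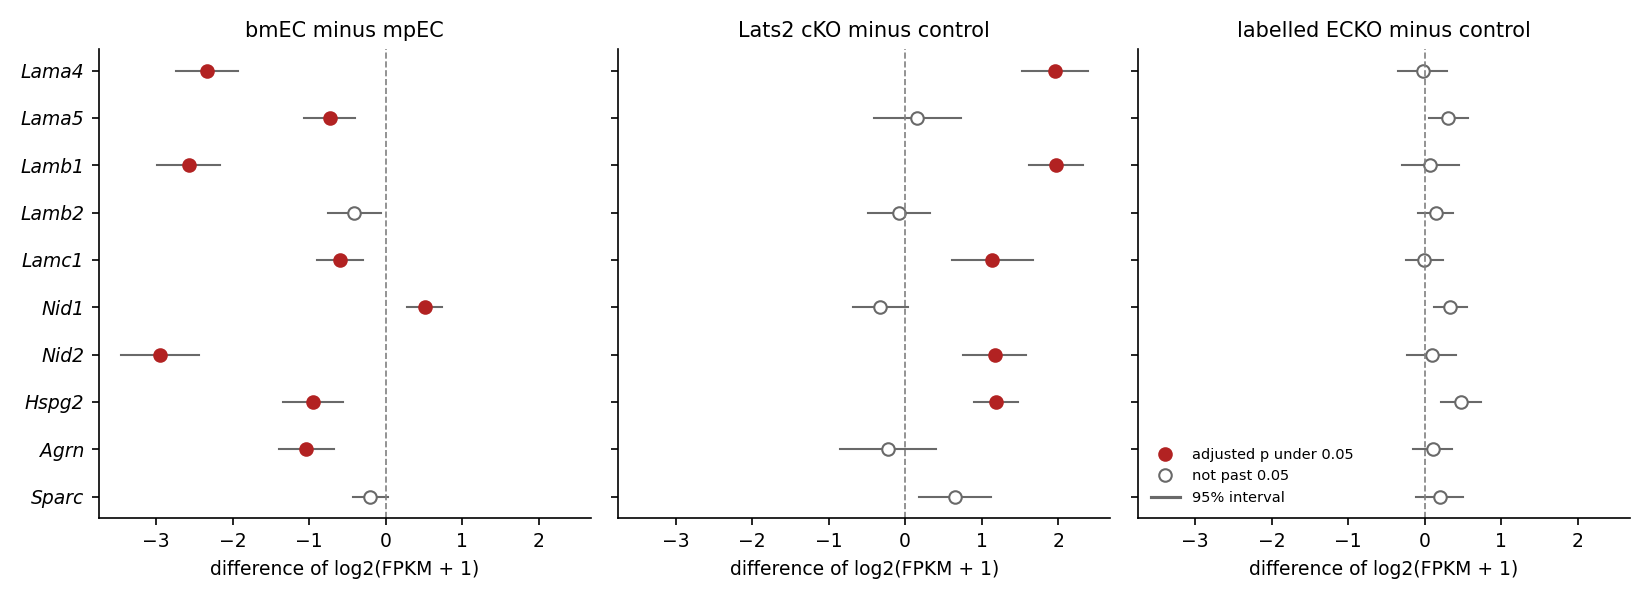
Difference of log2(FPKM + 1) of each member in the 3 comparisons, with limma's 95% interval as a line and a filled red point where the adjusted p was under 0.05. Lama4, Lamb1 and Nid2 lie far to the left of 0 for bmEC minus mpEC, to the right for Lats2 cKO minus control and near 0 for the libraries labelled ECKO minus control.

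Side by side, the 5 members called higher in the Lats2 cKO libraries were all among the 7 called lower in bmECs, which is 5 of 5 of the former and 5 of 7 of the latter. Over the 10471 genes tested in both comparisons, 1254 were called higher in Lats2 cKO and 1128 lower in bmECs, and the 424 called in both were 33.8% of the former and 37.6% of the latter. The comparisons share no library, and this overlap was counted and not tested. The log2 differences of Lama4 were -2.33 and 1.96, of Lamb1 -2.57 and 1.97, of Nid2 -2.95 and 1.17, of Hspg2 -0.95 and 1.19 and of Lamc1 -0.59 and 1.14. Lama5 and Agrn, the 2 others called lower in bmECs, were at 0.16 and -0.22 in the Lats2 comparison. Nid1, the one member called higher in bmECs, was at -0.33.

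Likeness was measured over all 16 libraries, after each gene had been centred within its comparison, as Pearson's r of log2(FPKM + 1) over the 9055 genes tested in all 3 comparisons. The libraries of a comparison share a table and its normalization, and r mainly reflects the group differences given above. Lama4 and Lamb1 had r = 0.987, and each was among the 3 genes nearest to the other. Col4a2 was nearest to Lama4 (r = 0.990), and Col4a1 was the third nearest to Lamb1 (r = 0.986). Of the 10 members, 4 had another member among their 20 nearest genes, namely Lama4, Lamb1, Lamb2 and Nid2. Nid1 stood apart with r from -0.756 (Lamb1) to -0.195 (Lamb2) with the other members. For Sparc, the member with the highest level, the 3 nearest genes were Eef2, Crip2 and Cnnm4, with r of 0.954, 0.947 and 0.934.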

How the data were processed

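RNA had been sequenced from 16 libraries of FACS-sorted mouse bone ECs. According to the methods and the submitters' processing notes, the authors mapped paired-end reads of stranded total RNA libraries to mm10 (GRCm38) by TopHat, obtained counts per gene from HTSeq (version 0.6.1) and used DESeq2 for their own tests. The values the authors deposited are FPKM, and the step from counts to FPKM is not given in the sources used here. Each of the 3 tables was used as deposited and only libraries within a table were compared. Of 21603 Ensembl identifiers, 21375 matched a gene name, and all 10 members were found.

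Genes that averaged 1 FPKM or more were tested as log2(FPKM + 1) with limma 3.58.1 (R 4.3.3), with 1 term for the group and a trend of variance with level. Tests were two-sided, with p-values adjusted over all genes tested and called under 0.05. Chain pairs were compared by exact permutation of the libraries, adjusted over 4 pairs. Reads were recovered with GENCODE M21 exon lengths, found for 93.2%, 99.8% and 93.1% of genes above 0, and 62.3% to 70.1% of values up to 20 reads lay within 0.02 reads of a whole number (4% by chance). The methods describe biological triplicates, while the Lats2 groups hold 2 libraries each. The animals behind each library are not given in the sources used here, and p-values measure only the spread between these libraries. No replicates of a group agreed within the noise of counting.

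Alternatives were a pseudocount of 0.1, a minimum of 5 FPKM or none, quantile and median-ratio scaling, no trend, the replicate number as a block, leaving out each library, and calls at an adjusted p under 0.01 with a log2 fold change over 0.5. Limma-voom on recovered reads was added after the values were seen. The members and gene lists were chosen with earlier results of these data known. Beside all members and the targeted genes, the text names up to 3 genes per list and direction with the largest called difference. Other genes of a list are named only to complete a count or to show what a sum holds. Tables and plots were made with Python 3.11.15, pandas 2.3.3, numpy 2.4.6 and matplotlib 3.10.9. The procedure was checked on simulated libraries. The list of further laminin chains is not reported here.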

Additional observations from a re-analysis of the deposited data

How the results depend on the processing

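With bmECs against mpECs, all 14 alternatives that could be run kept the direction of each member. Of 397 alternative values of the members' differences, 367 kept direction and side of the threshold, 15 lost the call, 4 gained it and 11 changed sign. Among the Lats2 libraries, the count of members called higher went from 5 to 0 without either control and was 0 to 5 over the reduced fits, because no gene of the 12465 or 12512 tested then passed, and it was 3 at an adjusted p under 0.01 with a log2 fold change over 0.5. It was 1 and not 0 for the libraries labelled ECKO with limma-voom. Sparc in the Lats2 comparison changed sign after quantile normalization (-0.060). With 1 library left out, differences near 0 changed sign, with ranges for the libraries labelled ECKO of -0.11 to 0.071 (Lama4), -0.11 to 0.20 (Lamb1), -0.082 to 0.047 (Lamc1) and -0.058 to 0.19 (Nid2) and for Lats2 of -0.12 to 0.44 (Lama5), -0.27 to 0.11 (Lamb2) and -0.49 to 0.047 (Agrn). For the ratios the ranges were -0.16 to 0.025 (Agrn to Hspg2, bmEC against mpEC) and -0.0373 to 0.24 (Lamb2 to Lamb1, libraries labelled ECKO). The counts of all genes called moved by over 1.5 times in 2 comparisons. For the libraries labelled ECKO, 148 genes were called in all, 1 without a filter, 17 without a trend, 45 with the block, 406 with limma-voom and 1 to 293 with 1 library left out. In the Lats2 comparison 2711 genes were called, 1389 without a filter and 0 to 2701 with 1 library left out. The cause was not tested. Low depth limits Lama4, Lamb1 and Nid2 in bmECs most, with as few as 97, 74 and 46 reads in a library.

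Deviations from the group means of libraries that share a replicate number had correlations of 0.088 to 0.307 for mpECs and bmECs, -0.175 to -0.123 for the Yap1/Taz libraries and 0.065 for the Lats2 libraries, and 4 of 6, 0 of 6 and 4 of 4 libraries correlated best with the one of the same number. With 2 libraries per group the deviations mirror each other, so the Lats2 count follows from the sign of that 1 value. The numbers were not taken to pair the libraries, since not every pair was over 0.1 or there were fewer than 3 pairs. The replicate block gave 3072, 45 and 2655 called genes in place of 2682, 148 and 2711 and changed no call on a member.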
